A study of Mus musculus with 20 samples.

Results

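RNA was sequenced from mouse embryonic stem cells (ESCs) on day 2 of Cnot3 deletion, before transcription was blocked. The members are the 4 libraries titled as 0 h with 4OH or WT, replicates 1 and 2 of each, out of 20 libraries in the series. All 4 came from ESCs labelled Cnot3 cKO (conditional knockout), strain C57BL/6. KO cells were given 0.1 µM 4-hydroxytamoxifen (4OHT), which triggers deletion of the conditional allele, and WT cells were given DMSO. WT cells therefore carried the undeleted conditional allele and no 4OHT, so an effect of 4OHT itself cannot be told apart from an effect of the deletion. Which recombinase the line carried, and whether it was 1 clone, were not given in the sources used here. Samples taken 4 and 8 h after 10 µg/ml actinomycin D, an inhibitor of transcription, in the same line, and day 3 whole-cell RNA, are used below only where named. On day 3 the KO libraries carry the same source label and the WT libraries are labelled E14Tg2a.

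CCR4-NOT is the main complex that shortens the poly(A) tails of cytoplasmic mRNAs, a step that usually precedes removal of the cap and decay. Cnot1 is its scaffold, Cnot6, Cnot6l, Cnot7 and Cnot8 are its nucleases, and Cnot3 pairs with Cnot2 in a module at one end of the scaffold. In ESCs the pluripotent state rests on a network of transcription factors around Pou5f1, Sox2 and Nanog. Its loss can lead to lineages that the early embryo sets aside, such as the trophectoderm, which forms the placenta.

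The 4 libraries held 19009656 and 18230219 gene reads in KO and 26412230 and 28318919 in WT, and 20736 to 20905 genes had at least 1 read. Replicates differed by more than counting error alone, with a chi-square per degree of freedom of 1.86 in WT and 2.5 in KO. The lowest share of reads in mitochondrially encoded mRNAs was 0.623%, in KO replicate 1, against 0.923% to 0.949% in the other 3 libraries. Levels are given as CPM, read counts relative to library size after TMM, edgeR's scaling for library composition. ESC markers were abundant in every library, and Pou5f1, Nanog, Sox2, Zfp42, Esrrb, Utf1 and Dppa5a lay between 383 CPM (Nanog, KO replicate 1) and 889 CPM (Zfp42, WT replicate 1). Replicates are called biological in the labels, and p-values measure the spread between these libraries.

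Cnot3 RNA was almost gone by day 2. Cnot3 (ENSMUSG00000035632; chromosome 7, 3645268 to 3661109, plus strand, GRCm38) had 2938 and 3223 reads in the WT libraries and 253 and 250 in KO. That is 117 and 119 CPM in WT and 12.7 and 13.2 CPM in KO, or 11.0% of WT. The log2 change was -3.19 ± 0.06 (SE; edgeR quasi-likelihood test, adjusted p = 2.44e-31). No other subunit moved by as much as 1 on the log2 scale. Cnot1, the scaffold, went from 702 and 680.5 CPM to 449 and 460.5 CPM (log2 -0.60 ± 0.04), and its WT and KO libraries did not overlap. Among the nucleases, Cnot6 fell by 0.65, Cnot7 by 0.41 and Cnot6l by 0.31, whereas Cnot8 rose by 0.11 (edgeR adjusted p = 0.0299), a call that was lost with DESeq2 and with some libraries left out. Cnot2, the partner of Cnot3, rose from 142 and 143 CPM to 173 and 179 CPM (log2 0.30 ± 0.04, adjusted p = 6.46e-08). Cnot10 fell by 0.26 and Cnot9 by 0.19 on the log2 scale, the latter no longer past the threshold when libraries were scaled to their totals alone. Cnot4, a ubiquitin ligase that associates with the complex, had a log2 change of -0.06 (edgeR adjusted p = 0.332) and Cnot11 one of -0.11 (edgeR adjusted p = 0.0505).

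The day 2 comparison asked which RNAs had changed early after loss of Cnot3. KO had 4902 genes higher (32.1% of the 15255 tested) and 4951 lower (32.5%) by edgeR's quasi-likelihood test at an adjusted p of 0.05, 64.6% in all. In 81.6% of genes tested the KO and WT libraries did not overlap, and this was so in 9838 of the 9853 genes called. By at least 1 on the log2 scale, 1572 genes (10.3%) were higher and 299 (1.96%) lower. The excess of large increases lay in genes of low level. Below 1 CPM in day 3 WT, 44% were higher by at least 1 and 2.39% lower. A gene low in WT could pass the filter on reads only through its KO libraries, where it had to be higher. At 100 CPM or more, 0.184% were higher by at least 1 and 1.43% lower. The balance of directions rests on the scaling. Scaling to library totals alone gave 6557 higher and 3412 lower, a shift of the median gene from 0.003 to 0.134 (log2), and DESeq2 called 3239 higher and 3950 lower. With so many genes called, a call for a list member says little alone, and the counts below are to be read against these shares.

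Direction went with abundance among genes of moderate and high level. By the mean level in the day 3 WT libraries, which the comparison did not use, the 3153 genes from 10 to 30 CPM had a median log2 change of -0.03 with 30.1% higher and 33.5% lower. For the 2174 genes at 100 CPM or more the median was -0.22, with 13.0% higher and 65.9% lower. Genes of very low level in WT are left out of this description, since a gene low in WT could pass the filter on reads only through its KO libraries. The part of abundance in the list results below was not tested. The plot of change against level shows the large increases at the left and the called decreases across the range.

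**Figure D1:**
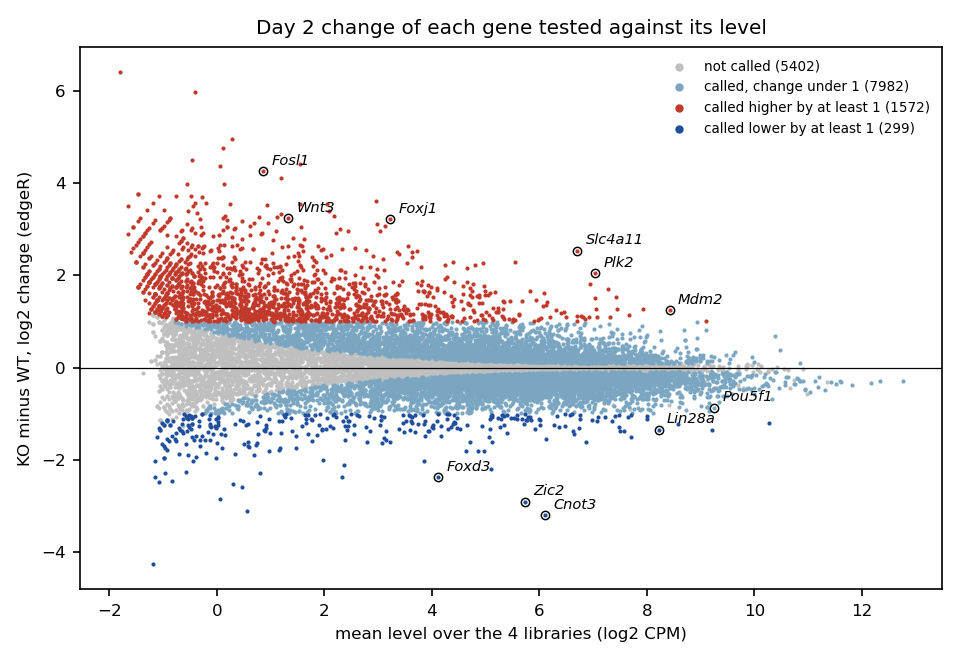
Each point is 1 of the 15255 genes tested, with its mean level over the 4 day 2 libraries (log2 CPM) across and its log2 change, KO minus WT, upward. The 1572 genes higher by at least 1 (red) are mostly of low level, and Cnot3, Zic2 and Foxd3 lie lowest among the genes with names.

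The 8 highest changes, among called genes with a mean log2 CPM of at least 3, were in genes of low or modest level in WT. Foxj1, a forkhead factor of ciliated cells, had 1.99 and 1.96 CPM in WT and 18.9 and 18.03 CPM in KO (log2 3.23 ± 0.13). Plcd4, a phospholipase C, went from 1.99 and 2.10 CPM to 17.97 and 16.3 CPM (log2 3.06 ± 0.14). These 2 genes had 50 to 57 reads per WT library and 310 to 378 per KO library, so the groups lay far apart. Slc4a11, a membrane transporter, rose from 33.4 and 29.8 CPM to 179 and 187 CPM (log2 2.54 ± 0.05, adjusted p = 6.72e-31 by edgeR). The other five were Ssc5d, a secreted scavenger receptor protein (log2 2.95), Sytl1, a synaptotagmin-like protein of vesicle traffic (2.65), Plch2, another phospholipase C (2.52), Micall2, which acts in junction traffic (2.51), and Trim47, a ubiquitin ligase (2.50). For Sytl1 the KO replicates stood at 25.5 and 18.5 CPM and the WT replicates at 3.58 and 3.47 CPM.

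The 8 lowest were Cnot3 and 7 genes of which 6 encode transcription factors. Zic2, a zinc finger factor of the epiblast, fell from 85.6 and 91.3 CPM to 10.9 and 12.8 CPM, 13.4% of WT (log2 -2.90 ± 0.07). Foxd3, a forkhead factor of the epiblast and neural crest, fell from 25.1 and 28.7 CPM to 5.16 and 5.27 CPM (log2 -2.37 ± 0.10). Zic5, a relative of Zic2, fell from 52.6 and 54.6 CPM to 10.1 and 13.2 CPM (log2 -2.21 ± 0.08). Lef1, a transcription factor of the Wnt pathway, fell by 2.02 on the log2 scale. Trps1, a GATA-type repressor, fell by 1.81, and Gbx2, a homeobox factor of naive ESCs, by 1.80. Inhbb, the only non-factor of the 7, encodes a subunit of activin B and went from 47.6 and 45.3 CPM to 13.1 and 13.4 CPM (log2 -1.81 ± 0.07). In all 16 genes of these 2 groups the KO and WT libraries were separate, as the rule for naming them required.

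**Figure D2:**
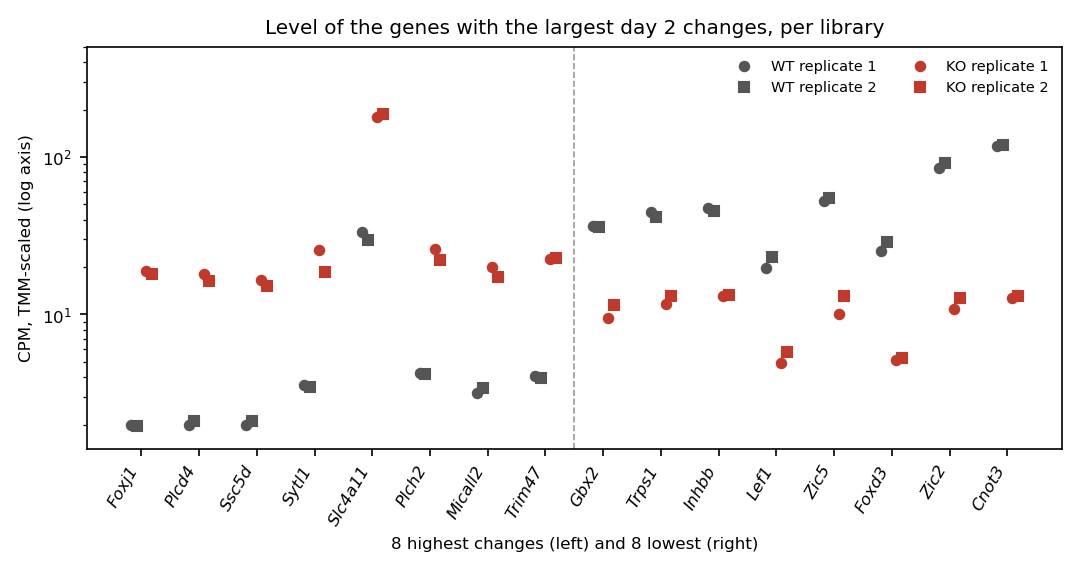
Level of each gene (CPM, TMM-scaled, log axis) in each of the 4 day 2 libraries, with circles for replicate 1, squares for replicate 2, grey for WT and red for KO. The 8 genes on the left are the highest changes and the 8 on the right the lowest, and replicates lie close together in both.

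Pluripotency factors fell together. Of 30 factors, all tested, 27 were lower and 2 higher, with a median log2 change of -0.61 against 0.003 for all genes, and 6 were lower by at least 1. Pou5f1, which encodes Oct4, went from 783 and 780.2 CPM to 431 and 428 CPM (log2 -0.86 ± 0.04, edgeR adjusted p = 4.03e-20). Sox2 went from 759 and 755 CPM to 543 and 584 CPM (log2 -0.43 ± 0.04), and Nanog from 513 and 523 CPM to 383 and 392.3 CPM (log2 -0.42 ± 0.04). For these 3 core factors KO kept 54.9%, 74.4% and 74.8% of the WT level. Larger decreases were seen in Fgf4, the growth factor that ESCs secrete (251 and 263 CPM to 98.0 and 100.3 CPM, log2 -1.38), Nr0b1, a nuclear receptor of naive cells (-1.37), and Lin28a, an RNA-binding protein that blocks let-7 maturation (-1.34). Utf1, a chromatin factor, rose by 0.21 and Tbx3, a T-box factor, by 0.14 on the log2 scale, and Tfcp2l1, a naive-state factor, had 373 and 351 CPM in WT and 366 and 358 CPM in KO (adjusted p = 0.988). In bulk RNA, fewer cells that express a gene and less RNA per cell cannot be told apart.

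Markers of the post-implantation epiblast, the primed state that follows the naive one, were lower as well. Of 11 listed, 10 were tested, 9 were lower and none higher, with a median log2 change of -1.16, and 6 fell by at least 1. Besides Zic2, Zic5 and Foxd3, the list holds Dnmt3b, a DNA methyltransferase, which went from 347 and 344 CPM to 155 and 167 CPM (log2 -1.10 ± 0.04).

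Trophectoderm markers were mostly higher. Of 17 listed, 15 were tested, 12 were higher and none lower, with a median log2 change of 1.12, and 8 rose by at least 1. The 3 not called were Eomes, Tfap2a and Plac1, with log2 changes of 0.35, -0.65 and 0.20. The list's summed level went from 197 and 208 CPM in WT to 398 and 407 CPM in KO. Krt18, a keratin of simple epithelia, went from 15.4 and 18.2 CPM to 39.5 and 40.0 CPM (log2 1.24 ± 0.07), and Krt19, another such keratin, from 15.0 and 15.4 CPM to 41.4 and 36.5 CPM (log2 1.36 ± 0.08). Tfap2c, an AP-2 transcription factor, rose from 124 and 129 CPM to 198 and 210.2 CPM (log2 0.69 ± 0.04), and thus made up most of the summed level in WT. Dlx3, a homeobox factor of the placenta, rose from 2.34 and 1.96 CPM to 9.26 and 8.70 CPM (log2 2.06 ± 0.16). Cdx2 and Elf5, which help define the lineage, had too few reads to be tested.

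Junction genes of simple epithelia also rose more often than they fell. Of 13, all tested, 9 were higher and 4 lower, with a median log2 change of 0.51. Changes ran from -0.95 to 1.21. The genes named next were those of smallest adjusted p in the list, and all of them rose. Pkp2 and Dsp, parts of the desmosome, rose by 1.02 and 1.21 on the log2 scale, and the tight-junction claudins Cldn6 and Cldn4 by 1.05 and 0.71. Dsp had 19.1 and 20.8 CPM in WT and 48.4 and 43.7 CPM in KO, with no overlap. Cldn4 had 61.3 and 61.4 CPM in WT and 103.9 and 96.6 CPM in KO. Many epithelial genes hold a site for AP-1, the dimer of Fos and Jun proteins. The motif TGAGTCA, chosen after the values of Fosl1 (below) were seen, was sought on both strands in the 250 bases upstream of gene starts in RefSeq's promoter table (GRCm38.p6), which matched 11240 of the 15255 genes by symbol. It was present for 6.39% of matched genes higher by at least 1, 4.55% of those higher by less, 3.68% of genes not called, 3.01% of those lower by less than 1 and 4.67% (7 of 150) of those lower by at least 1. Of all matched genes 3.96% held it, as did 4.46% of all 32851 starts in the table. Whether junction genes held the motif more often than other genes was not tested. The search gave no match for Pkp2, Dsp or Cldn6. Matches were listed only for genes named by rule for the day 2 change and called higher, leaving out 1 chromosome. Among these it gave a match for Cldn4 alone. Its upstream region held 2, shown 5′ to 3′ on the gene's strand (minus) with the motif, there read as TGACTCA, in capitals, the first from chr5:134947138-134947184 and the second from chr5:134947056-134947122.
Cldn4, 240 bases before the start: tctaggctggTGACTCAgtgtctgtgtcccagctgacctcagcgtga
Cldn4, 158 bases before the start: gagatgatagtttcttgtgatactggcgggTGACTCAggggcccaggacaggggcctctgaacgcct
A match describes these letters only.

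Other lineages gave mixed counts. Of 18 primitive endoderm markers 17 were tested, with 6 higher and 1 lower (12 higher with library totals alone), and their summed level went from 1746 and 1728 CPM to 1631 and 1595 CPM. Lamc1, a laminin chain, went from 728 and 701 CPM to 397 and 391 CPM (log2 -0.86 ± 0.04), a larger fall than that of the sum. The collagen chain Col4a2 rose by 0.49 and the transcription factor Hnf4a by 0.56 on the log2 scale. Of 13 mesoderm and primitive streak markers 9 were tested, 6 being higher (3 by DESeq2) and 2 lower. Wnt3, a ligand that starts the streak, had 11 and 16 reads in WT and 96 in each KO library (log2 3.24 ± 0.25). T, the streak factor Brachyury, had 9 reads in each WT library and 32 and 33 in KO, and Bmp4 fell by 0.69 on the log2 scale. With so few reads in WT, Wnt3 and T could pass the filter on reads only through KO libraries, where they had to be higher. Their place among the 6 higher is a description. Neuroectoderm had 5 tested of 9: Nes and Map2 rose by 0.67 and 0.49, and Pax6 and Sox11, transcription factors of neural progenitors, fell by 2.01 and 1.63. The neural factors that define the lineage earliest, such as Sox1, had too few reads to be tested.

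Genes of the 2-cell embryo, which a small share of ESCs expresses at any time, had few reads. Of 16 listed, 8 were tested, 7 were higher by at least 1 and none was lower, and the summed level rose from 4.32 and 5.79 CPM to 17.0 and 14.5 CPM. A gene that entered the test through its KO reads had to be higher there, so the count is a description. Zscan4d, a telomere-linked zinc finger gene, had 24 and 40 reads in WT and 73 and 63 in KO (log2 1.51 ± 0.23). Zscan4 and Usp17l genes are near-identical copies, and reads may be split between them or left uncounted.

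Feeder fibroblasts were included as cells a culture could hold. Of 12 markers 6 were tested, 4 being higher and none lower, and the sum went from 37.8 and 38.8 CPM to 65.8 and 62.3 CPM. Dcn and Lum, 2 defining fibroblast matrix genes, had 0 reads in all 4 libraries. Col1a1 rose from 2.304 and 2.81 CPM to 8.06 and 6.38 CPM (log2 1.495 ± 0.17).

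Targets of p53, the stress-activated tumour suppressor, rose more often than they fell. Of 21, all tested, 15 were higher, 6 of them by at least 1, and 3 were lower, with a median log2 change of 0.48. Plk2, a polo-like kinase, rose from 54.3 and 50.9 CPM to 215 and 218 CPM (log2 2.04 ± 0.05, edgeR adjusted p = 1.01e-29). Btg2, an antiproliferative protein that binds CCR4-NOT nucleases, rose from 56.6 and 54.2 CPM to 199.9 and 191 CPM (log2 1.82 ± 0.05). Perp, a desmosome-linked effector, rose by 1.67 on the log2 scale, and Mdm2, the ubiquitin ligase that restrains p53, by 1.25, from 207 and 202 CPM to 479 and 492 CPM. Cell cycle inhibitors and pro-apoptotic genes, a list of 18 with 17 tested, had 5 higher and 7 lower. Rb1, which holds cells in G1, rose from 31.8 and 30.4 CPM to 69.4 and 69.4 CPM (log2 1.16 ± 0.06). Bmf and Bak1, which promote cell death, fell by 1.29 and 0.84, and Cdkn1b, a CDK inhibitor, by 0.71 on the log2 scale.

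Signalling genes are given by pathway, and differences between pathways were not tested. Over all genes 32.1% were higher and 32.5% lower, and the counts in this paragraph and the next are to be read against these shares. In the FGF-ERK pathway, where ERK induces its own inhibitors, 7 of 10 feedback genes were lower and 2 higher. Spry4 fell from 306 and 299 CPM to 106 and 108 CPM (log2 -1.499 ± 0.04), and Spred1, Spry2 and the ETS factor Etv5 fell by 0.87, 0.68 and 0.61 on the log2 scale. Among 23 immediate early genes, which growth signals switch on within minutes, 21 were tested, 9 were higher and 6 lower. Egr1, an ERK-induced zinc finger factor, fell from 108 and 104 CPM to 43.4 and 47.0 CPM, and Ier2 by 0.83 on the log2 scale. Ccn1, a matrix protein, rose from 9.38 and 10.2 CPM to 33.5 and 36.9 CPM (log2 1.85 ± 0.08). Fosl1, a Fos-family partner of Jun, had 5 reads in each WT library and 70 and 77 in KO (log2 4.26 ± 0.33). It could pass the filter on reads only through its KO libraries, so its place among the 9 higher is a description.

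Of the Id genes, targets of BMP that inhibit differentiation factors, Id1 rose from 30.5 and 26.5 CPM to 74.2 and 80.7 CPM (log2 1.44 ± 0.06), Id2 by 1.76 and Id3 by 0.78 on the log2 scale. Smad7, an inhibitor of the pathway, fell by 0.66. The whole BMP list of 14 had 6 higher and 4 lower. Of 12 Nodal pathway genes 3 were higher and 7 lower. The ligand Nodal rose from 113 and 109 CPM to 144 and 140.4 CPM (log2 0.36 ± 0.04), whereas its feedback inhibitors Lefty1 and Lefty2 fell by 0.64 and 0.27, and Skil, which represses Smad activity, by 0.57. Wnt feedback and target genes had 11 tested of 12, 3 higher and 4 lower. Ccnd1, a cyclin, and Notum, an enzyme that inactivates Wnt, fell by 1.06 and 1.13, Znrf3, which removes Wnt receptors, fell by 0.63, and Tcf7, a Wnt pathway factor, rose by 0.74 on the log2 scale.

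**Figure D3:**
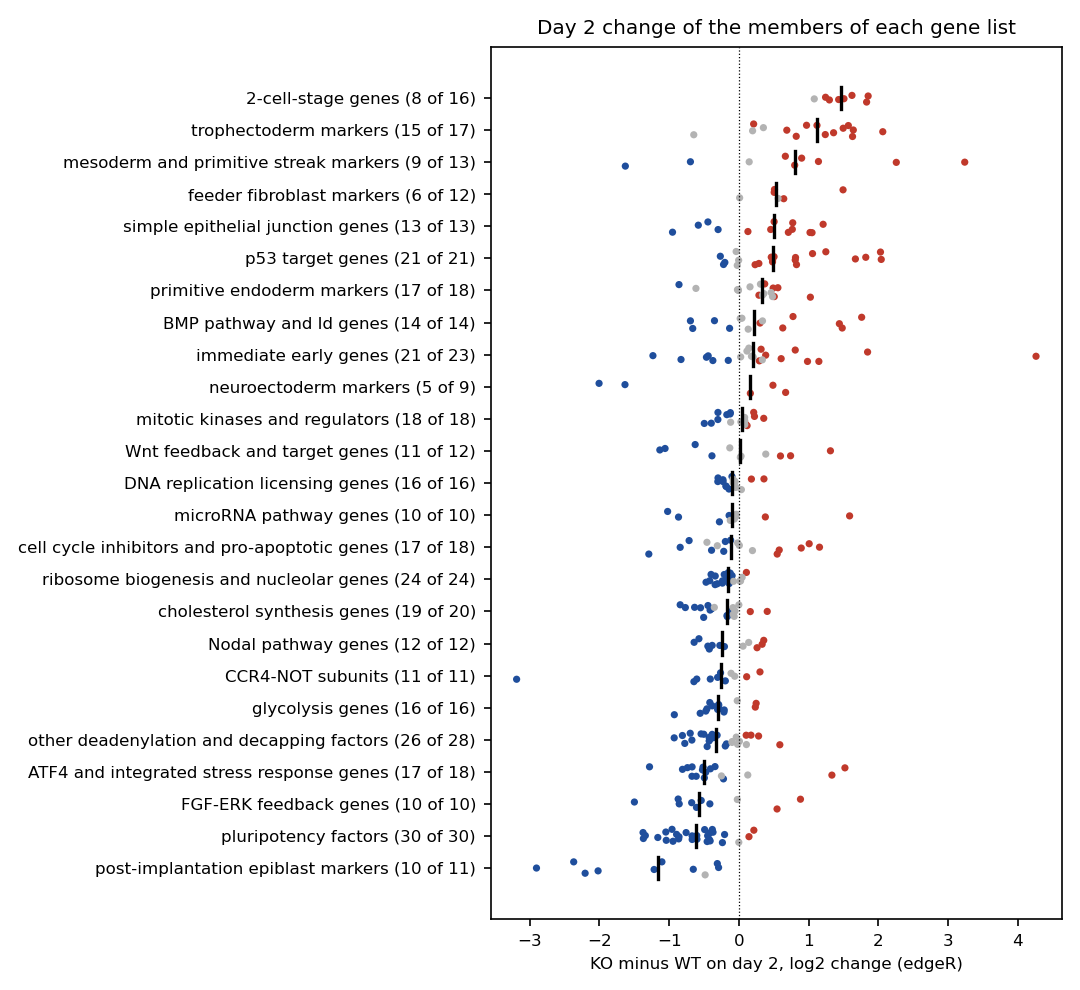
Each point is a tested gene of a list, placed by its log2 change on day 2 (KO minus WT), red where called higher, blue where called lower and grey where not called. Bars are medians, and the numbers in brackets are genes tested of genes listed. The 2-cell-stage and trophectoderm lists lie furthest to the right and the post-implantation epiblast list furthest to the left.

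Genes of the integrated stress response and of glycolysis were mostly lower. Of 18 ATF4 and stress response genes 17 were tested, 13 were lower and 2 higher, with a median log2 change of -0.50. Atf4 itself fell from 140.2 and 144 CPM to 83.9 and 86.7 CPM (log2 -0.74 ± 0.04). The amino acid transporter chains Slc7a5 and Slc3a2 fell by 0.81 and 0.67 on the log2 scale. Ddit4, an inhibitor of mTORC1 that other stresses also induce, rose from 88.7 and 90.7 CPM to 275 and 241 CPM (log2 1.52 ± 0.05). Glycolysis genes had 13 of 16 lower, led by the hexokinase Hk2 at -0.93, and Eno1, Pfkl and Pgk1 fell by 0.47, 0.46 and 0.56 on the log2 scale. Of 20 cholesterol synthesis genes 19 were tested, with 11 lower and 2 higher (8 lower and 3 higher with library totals alone), the lower ones including the regulators Insig1 (-0.77) and Srebf2 (-0.64) and the enzyme Sqle (-0.55).

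Abundant housekeeping mRNAs shifted slightly down. Of 78 ribosomal protein genes 68 were lower and 1 higher, with a median log2 change of -0.42, and with library totals alone 60 were lower and 2 higher. Rpl22 went from 366 and 371 CPM to 253 and 250.3 CPM (log2 -0.55 ± 0.04) and Rps25 from 229 and 227 CPM to 156 and 165 CPM (log2 -0.50 ± 0.04). Nuclear genes for oxidative phosphorylation numbered 80 tested of 84, with 62 lower, 3 higher and a median of -0.34, and Cox6a1, a subunit of cytochrome oxidase, fell by 0.56. Genes at 100 CPM or more in day 3 WT had a median of -0.22, as given above. Mitochondrially encoded mRNAs had 7 tested of 13 and none called, with a median of -0.42. Without KO replicate 1, the library with the lowest mitochondrial share, the median was -0.14 and 5 of the 7 were called lower, and without KO replicate 2 it was -0.71 and all 7 were. Ribosome biogenesis genes had 19 of 24 lower by small amounts, 7 with library totals alone, and Nop58, a core snoRNP protein, fell by 0.47.

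Zinc finger genes named Zfp, many of which encode KRAB repressors of transposons, had 332 tested of 348, with 199 lower and 27 higher and a median log2 change of -0.38. Zfp740 fell from 269 and 274 CPM to 106 and 105 CPM (log2 -1.36 ± 0.04) and Zfp990 by 1.03. Against that direction, Zfp750, an epidermal differentiation factor, rose from 17.8 and 16.5 CPM to 51.7 and 51.2 CPM (log2 1.58 ± 0.07), and Zfp365 rose by 1.10. Members with near-identical copies may share reads.

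Among other factors of tail shortening and decapping, 26 of 28 were tested, 16 being lower and 4 higher, with a median log2 change of -0.33. Dcp2, the decapping enzyme, went from 258 and 240.1 CPM to 128 and 133 CPM (log2 -0.93 ± 0.04). Tnrc6c, which links microRNA complexes to CCR4-NOT, fell by 0.81 and the helicase Ddx6 by 0.70, whereas Edc4, a decapping scaffold, rose by 0.59. In the microRNA pathway 10 genes were tested, 4 lower and 2 higher. Lin28b and Trim71, targets of let-7, fell by 1.02 and 0.87, and Dicer1 by 0.28 on the log2 scale. Ago4 had 23 and 20 reads in WT and 62 and 35 in KO (log2 1.59 ± 0.29).

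None of the 16 DNA replication licensing genes or the 18 mitotic regulators changed by as much as 1. Large changes were also rare among all genes at 100 CPM or more in day 3 WT, with 0.184% higher and 1.43% lower. The counts called are to be read against 64.6% called in either direction over all genes. Licensing genes had 8 lower and 2 higher, and with library totals alone 3 lower and 3 higher. Orc1, of the origin recognition complex, rose by 0.36 and Dbf4, which activates the kinase Cdc7, fell by 0.30. Among mitotic regulators 7 were lower and 5 higher, against 4 lower and 10 higher with library totals alone. Birc5 (survivin) and Cdk1 fell by 0.50 and 0.40, and Cdc20, an activator of the anaphase-promoting complex, rose by 0.36 on the log2 scale. Replication-dependent histones, whose mRNAs lack a poly(A) tail, had 11 tested of 54 and few reads, with 1 higher and 3 lower, none of which DESeq2 called.

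Features of the transcripts that the comparison did not use differed between classes. In GENCODE M21 the median 3′ UTR was 691 bases in genes higher by at least 1, 820 in those higher by less, 862 in genes not called, 1251 in those lower by less than 1 and 1327 in those lower by at least 1, against 937 over all. Short words in the 3′ UTR were counted on the transcript's strand in these classes. Medians and shares, here and in the next paragraph, cover genes with an annotated 3′ UTR. These were 1460 of 1572 genes higher by at least 1 and 211 of 299 lower by at least 1. Median levels ran from 1.77 CPM (higher by at least 1) to 60 CPM (lower by less than 1). The part of level was not tested. TATTTAT, the core of AU-rich elements, was in 18.8% of the first class and 43.6% of the last (26.6% of all), and TGTANATA, the Pumilio motif, in 15.0% and 33.2% (23.5% of all). A longer 3′ UTR holds more words by its length alone. Per 1000 bases TATTTAT occurred 0.237 and 0.402 times in the first and last class, and TGTANATA 0.183 and 0.273 times. Among 3′ UTRs of over 1500 bases, genes with TATTTAT had a median log2 change of -0.12 and those without it -0.03, against 0.04 and 0.10 among 3′ UTRs of up to 500 bases.

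AGCACTT, which pairs with the seed of the main microRNA family of ESCs, was in 10.6% of genes higher by at least 1, 18.8% of those lower by less than 1, 16.6% of those lower by at least 1 and 15.1% of all. Per 1000 bases it occurred 0.108, 0.141 and 0.111 times in these 3 classes, against 0.130 over all. In 3′ UTRs of over 1500 bases the median log2 change was -0.12 with the word and -0.05 without, and in those of up to 500 bases it was 0.10 with the word and 0.09 without. RefSeq's table (GRCm38.p6) lists 5 mature mouse microRNAs whose bases 2 to 8, in capitals, pair with it, shown because CCR4-NOT acts for microRNAs on their targets.
mmu-miR-291a-3p: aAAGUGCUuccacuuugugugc
mmu-miR-294-3p: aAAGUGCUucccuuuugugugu
mmu-miR-295-3p: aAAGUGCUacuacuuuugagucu
mmu-miR-302b-3p: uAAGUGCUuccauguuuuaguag
mmu-miR-302d-3p: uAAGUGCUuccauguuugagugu
They share this seed and differ outside it. The libraries give no levels of mature microRNAs here.

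The same cells 4 and 8 h into actinomycin D gave libraries that the day 2 comparison did not use. The classes were chosen by their 0 h values, which are therefore not set in series with the later ones. Genes higher by at least 1 had a median log2 difference, KO less WT, of 1.32 at 4 h and 1.19 at 8 h. For genes lower by at least 1 it was -1.18 and -1.28. In 83.8% and 77.3% of these 2 classes the KO and WT libraries were separate in the same direction at both later times. Over all genes, with the sign at 0 h taken, it was 60.9%, and for the 5402 not called 34.5%. RNA after the block carries over from 0 h, where the classes were chosen, so these shares are a description. CPM after the block is relative to the RNA that remains. In WT the median log2 change from 4 to 8 h lay between -0.01 and 0.11 in every class, and the quartiles of every class spanned 0.

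Single genes differed in their change from 4 to 8 h. On the scale of the 12 libraries together, Slc4a11 held 188.4 and 188.5 CPM in KO at 4 h and 194.5 and 188.4 CPM at 8 h. In WT it went from 35.2 and 32.95 CPM to 30.7 and 30.4 CPM. Trim47 went from 16.1 and 16.5 CPM at 4 h to 9.68 and 10.1 CPM at 8 h in KO. In WT it went from 2.02 and 1.13 CPM to 0.554 and 0.740 CPM. Id1 went from 54.7 and 59.9 CPM at 4 h to 70.8 and 73.5 CPM at 8 h in KO. In WT it went from 9.465 and 5.91 CPM to 8.31 and 8.54 CPM. Relative to the remaining RNA, Slc4a11 thus changed little in KO and Id1 rose there. In WT the log2 change from 4 to 8 h was -0.156 for Slc4a11 and 0.17 for Id1. Plk2 fell in both arms, from 49.5 and 51.8 CPM at 4 h to 27.7 and 26.4 CPM at 8 h in KO. In WT it went from 6.68 and 5.17 CPM to 4.03 and 3.47 CPM. Nanog, lower in KO at 0 h, stood at 474 and 480.5 CPM in KO and 415 and 388 CPM in WT at 8 h. Pou5f1 remained lower in KO, with 692 and 697 CPM at 8 h against 1840 and 1789 CPM in WT.

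The day 3 change was compared with the day 2 change by a test of their difference. Of 19071 genes tested, 485 (2.54%) had a day 3 change above that of day 2 and 436 (2.29%) one below it. Day and library type cannot be told apart. The day 3 libraries had 29568 to 32072 genes with a read. They had 19.8% to 23.7% of reads outside genes, against 6.27% to 7.22% on day 2. On day 3 the KO libraries are labelled Cnot3 cKO and the WT libraries E14Tg2a, so deletion and source label cannot be told apart there. In the day differences below, day, library type and source label are therefore not separable. The counts also moved with the libraries used. Without day 3 WT replicate 1 or 2 there were 973 or 1327 genes below, and without day 2 WT replicate 1 or 2 there were 267 or 213. The genes above numbered 238 without day 3 WT replicate 1, 265 and 281 without day 2 KO replicate 1 or 2, and 248 and 221 without day 2 WT replicate 1 or 2.

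Among genes past the threshold with a mean log2 CPM of at least 3, the 4 highest day differences were those of Gprc5a, Krt8, S100a6 and Sfn. Krt8, the partner of Krt18, had a log2 change of 0.97 on day 2 and 2.25 on day 3 (difference 1.34 ± 0.14, edgeR adjusted p = 1.32e-04), with 45.5 and 49.2 CPM in day 3 WT and 229 and 220.3 CPM in day 3 KO. Sfn, an epithelial 14-3-3 protein, went from 1.61 to 2.76, and S100a6, a calcium-binding protein, from 1.30 to 2.46. Gprc5a, a membrane receptor of epithelia, was lower on day 2 (-0.61) and higher on day 3 (1.12). Its mean level in KO was 7.75 CPM on day 2 and 8.49 CPM on day 3. In WT it was 12.4 and 3.92 CPM, and the day 3 WT libraries carry another label. The call for S100a6 was lost without any 1 of the 4 day 2 libraries. Of 13 simple epithelial junction genes, 4 had a day 3 change above that of day 2 and 1 below (2 above and none below without day 2 WT replicate 2). Of 17 trophectoderm markers tested, 6 had a day 3 change above that of day 2 and none below (4 to 7 above over the alternatives).

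Under the same limit on level, the 4 lowest day differences included those of both Lefty genes, inhibitors of Nodal. Lefty2 changed by -0.27 on day 2 and -1.55 on day 3 (difference -1.21 ± 0.09, edgeR adjusted p = 2.75e-07) and Lefty1 by -0.64 and -1.87. A2m, a protease inhibitor, changed by -0.86 and -1.92. Snrpf, a spliceosome core protein, changed by -0.50 and -1.64, with 21.6 and 14.6 CPM in WT and KO on day 2 and 1.08 and 0.340 CPM on day 3. Its difference (edgeR adjusted p = 0.0465) was no longer past the threshold with library totals alone, without any 1 of the 4 day 2 libraries, or without day 3 KO replicate 1, KO replicate 2 or WT replicate 2. Of 12 Nodal pathway genes 4 had a change below that of day 2 and none above (3 and 1 with library totals alone). Of 30 pluripotency factors 7 had a change below that of day 2 on day 3 and 1 above (5 to 13 below over the alternatives), among them Fgf4, at -1.38 on day 2 and -1.84 on day 3. The difference for Pou5f1 had an edgeR adjusted p of 0.17, and that for Nanog 0.864.

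Stress response genes, mostly lower on day 2, were less so or higher on day 3. Of 18 ATF4 and integrated stress response genes tested, 10 had a day 3 change above that of day 2 and none below (6 to 12 above over the alternatives). Asns, asparagine synthetase, changed by -0.34 on day 2 and 0.41 on day 3 (difference 0.82 ± 0.07, edgeR adjusted p = 7.17e-08). Ddit3, which encodes CHOP, changed by -0.52 and 0.39, and Atf4 by -0.74 and -0.19. Cholesterol synthesis genes had 8 of 19 above and none below (5 to 12), such as Insig1 at -0.77 and -0.24. Glycolysis genes had 6 of 16 below and none above (3 to 10), such as Eno1 at -0.47 and -0.89.

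**Figure D4:**
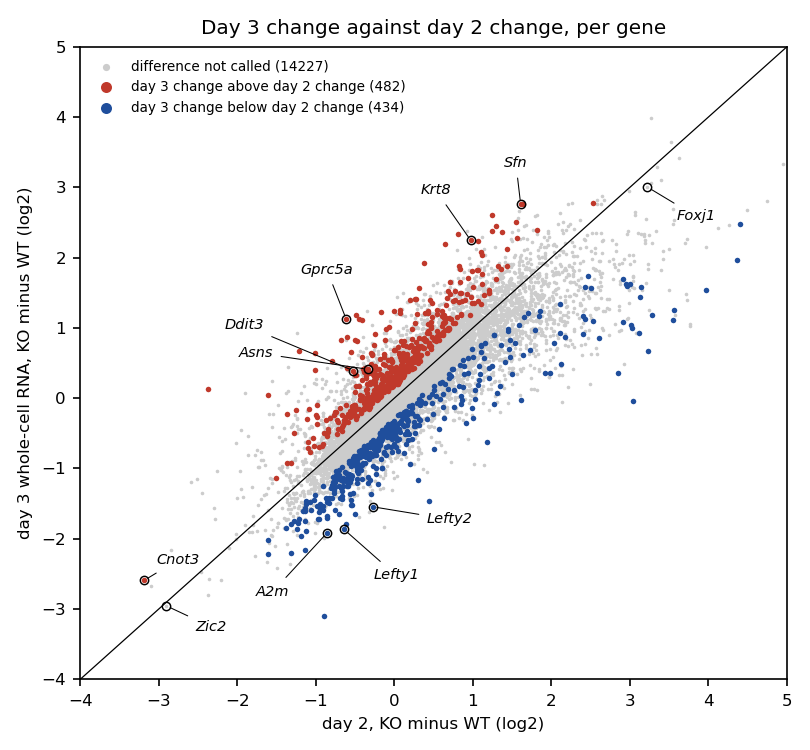
Each of 15143 genes is placed by its log2 change (KO minus WT) on day 2 across and on day 3 in whole-cell RNA upward, with the line of equal change. Red genes have a day 3 change above that of day 2 and blue genes one below it by the test of the difference, and 3 genes lie outside the axes. Krt8, Sfn and Gprc5a lie above the line and Lefty1, Lefty2 and A2m below it.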

How the data were processed

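The authors deposited counts of reads per Ensembl gene, 1 table per library, with whole numbers for 37991 IDs. Per the submitters' processing notes, reads were aligned with STAR 2.3.0e to mm9 and counted with HTSeq. Its version and the use of poly(A) selection were not given in the sources used here. Symbols, biotypes and transcripts came from GENCODE M21 (GRCm38) by gene ID, for 32938 IDs. HTSeq's tallies of unassigned reads, 6.27% to 7.22% of the day 2 reads outside genes, were left out.

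The 4 day 2 libraries were fitted alone with edgeR 4.0.16 in R 4.3.3 (TMM, a filterByExpr minimum count of 10, robust quasi-likelihood F-test), with Benjamini-Hochberg adjustment over all genes tested and a threshold of 0.05. The difference between the day 3 and day 2 changes used 8 libraries. The procedure was run on simulated counts with few planted changes, equally many up and down. Changes here were many and unbalanced, so that run does not test the scaling. Levels are TMM-scaled CPM, errors of log2 changes are SE. Values at 4 and 8 h carry a prior count of 2.

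Members, lists and tests were chosen with earlier results of these data known, and no list was tested as a set. Named genes were the CCR4-NOT subunits, Pou5f1, Sox2 and Nanog, the 8 highest and 8 lowest changes past the threshold with a mean log2 CPM of at least 3, separate groups and a symbol, up to 4 of the smallest adjusted p per list (some are not reported here), and the 4 highest and 4 lowest day differences. Utf1, Tbx3, Tfcp2l1, Asns and Ddit3 were named after their values were seen. Alternatives were RLE scaling, library totals, no filter, at least 1 CPM in 2 libraries, DESeq2 1.42.0, a replicate block, the 12 libraries of the actinomycin D series, protein-coding genes alone and each library left out. Same-numbered libraries did not deviate together (r = 0.065 across genes), so the numbers were not taken as pairs.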

Additional observations from a re-analysis of the deposited data

Results flagged for a closer look

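For 8 genes the change differed between days by the test of the difference (edgeR). The day 3 change lay above that of day 2 by 1.80 on the log2 scale for Gprc5a, 1.34 for Krt8, 1.22 for S100a6 and 1.21 for Sfn. It lay below with a difference of -1.21 for Lefty2, -1.16 for Lefty1, -1.08 for Snrpf and -1.0 for A2m. In Gprc5a the change had opposite signs on the 2 days. Its mean was 7.75 and 8.49 CPM in KO on days 2 and 3, and 12.4 and 3.92 CPM in WT. Without any 1 of the 4 day 2 libraries, S100a6 and Snrpf were no longer past the threshold, and Snrpf was lost also with library totals alone and without day 3 KO replicate 1, KO replicate 2 or WT replicate 2.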

How the results depend on the processing

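The day 2 call of the 138 named genes was lost under at least 1 alternative for Cnot8, Cnot9 and 4 histones, gained for Cnot11, and reversed in sign for Cnot4 (0.071 with library totals, -0.137 to 0.002 with 1 library left out) and Cnot11 (0.019 with library totals), neither of them past the threshold in the fit reported. Genes higher numbered 3239 with DESeq2, 6557 with library totals (3412 lower) and 4172 to 4645 with 1 library left out, and genes lower 4406 to 4829. By at least 1 log2, 1431 to 1643 were higher and 284 to 386 lower with 1 library left out. The replicate block gave 4963 higher and 5055 lower. For the difference between days, library totals gave 1049 above and 270 below, the replicate block 855 and 780, and no filter 1243 below. With 1 of the 8 libraries left out 221 to 441 were above and 213 to 1327 below. Over the genes of the fit reported, list medians changed sign with library totals for licensing genes (0.04), the microRNA pathway (0.037), cell cycle inhibitors (0.014) and histones (0.015), and for Wnt genes without KO replicate 2 or WT replicate 2 (-0.211 to 0.006 with 1 library left out, -0.006 for the latter). Over the genes each setting itself tested, the Wnt median lay between -0.134 and 0.153 and that of histones between -0.578 and 0.078, with both signs under several settings. The WT change from 4 to 8 h changed sign with library totals for genes higher by at least 1 (-0.089), not called (-0.087), lower by less than 1 (-0.067) and lower by at least 1 (-0.04). Beyond the scaling itself, the cause was not tested. Leaving out a library left 1 in its group, whose spread then came from the other groups. Depth limits genes of few reads, such as the 2-cell genes and histones.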
